A study of Homo sapiens with 6 samples.

Results

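The 9 genes described here are HSD11B1, which encodes the enzyme that regenerates active glucocorticoid inside cells, NR3C1, which encodes the glucocorticoid receptor, and 7 genes known to be transcribed in response to that receptor: FKBP5, TSC22D3, PER1, KLF9, SGK1, ZBTB16 and ERRFI1. They were taken by symbol from the deposited count table, through the Ensembl identifier of each entry, and all 9 were found among 23227 genes. All 9 also passed the filter on low counts, which left 14635 genes to be tested. HSD11B1 was chosen because its level was known to differ between the groups, and the other members were chosen with results of the same libraries in view. Their values in this contrast are therefore given as a description. The fit over all genes included them, its calls are counted only as part of that description, and no p-value of theirs is offered as support.

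The libraries came from MV4-11, an established human acute myeloid leukaemia line. Of the 6 libraries 3 carried a knockdown of ENO1, the gene of the glycolytic enzyme alpha-enolase, and they were set against 3 control libraries. Both groups were labelled with the genotype WT. The labels give the treatment of the controls as none, and their titles read NC, an abbreviation that the labels leave unexplained. The knockdown columns carry the name of 1 hairpin, sh2, so that the knockdown rests on 1 hairpin in 1 cell line, and the labels do not say if the controls received a hairpin of any kind. The labels name no glucocorticoid treatment and do not describe the culture medium. Separate cultures are not mentioned either, so every p-value below reflects the scatter among these 6 libraries alone, which could be purely technical.

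Cortisol and its inactive relative cortisone are interconverted by 2 enzymes. The product of HSD11B1 sits in the membrane of the endoplasmic reticulum and works mainly as a reductase that makes cortisol, using NADPH that the product of H6PD supplies in the lumen, while the product of HSD11B2 runs the opposite reaction. Cortisol binds the receptor, which is held ready in the cytosol by HSP90 and its partner proteins, and the bound receptor moves to the nucleus, where it switches some genes on and holds inflammatory genes down. In myeloid cells this pathway is known for its anti-inflammatory action, and HSD11B1 is known to increase as monocytes become macrophages.

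The knockdown libraries held 20044602 to 21670135 counts and the control libraries 24778469 to 26373960. ENO1 itself was at 102.1 ± 1.25 CPM in the knockdown libraries and 3262 ± 22.6 CPM in the control libraries (SD, n = 3 each), where CPM are the usual depth-scaled counts, with TMM factors applied to the library sizes. Mitochondrially encoded genes took 9.27 to 9.69% of the counts in the knockdown libraries and 6.69 to 6.88% in the control libraries. Knockdown replicate 3 and control replicate 2 differed most from the libraries beside them in their groups. Of all tested genes, 59.9% were called (edgeR quasi-likelihood test, adjusted p below 0.05), 29.4% as higher and 30.5% as lower in the knockdown cells, and the median log2 fold change over all tested genes was 0.00431. Among the markers of the labelled cell type, CD33 was at 148 ± 3.09 CPM in the knockdown libraries and 126 ± 4.37 CPM in the control libraries (SD, n = 3 each). It was one of 4 in a list of 12 myeloid markers that rose, with FLT3, CSF1R and ITGAM. The largest rise was that of ITGAM, by 1.81 on the log2 scale (edgeR adjusted p = 8.35e-19). Another 6 of the 11 tested markers fell, with log2 fold changes of -2.61 for MPO, -2.41 for LYZ, -2.19 for CSF3R, -0.93 for ELANE, -0.91 for FCGR1A and -0.86 for AZU1. The monocyte marker CD14 was near 0, with 4, 7 and 17 counts in the knockdown libraries and 22, 8 and 5 counts in the control libraries.

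HSD11B1 was lower in every knockdown library than in any control library, by the widest margin among the members with enough counts in both groups for a fitted fold change. The gene (ENSG00000117594) lies on the plus strand of GRCh38 chromosome 1, from 209686178 to 209734950. It had 19, 21 and 27 counts in the knockdown libraries, against 300, 219 and 236 counts in the control libraries. As levels, these were 0.883, 0.953 and 1.33 CPM in the knockdown libraries, against 11.6, 8.98 and 9.68 CPM in the control libraries. The groups did not overlap, the knockdown libraries lay close together near 1 CPM, and control replicate 1 was the highest. The mean was 1.05 ± 0.239 CPM in the knockdown cells and 10.1 ± 1.34 CPM in the control cells (SD, n = 3 each), so that the knockdown cells held 10.5% of the control level. The log2 fold change was -3.26, with a standard error of about 0.18, and 14 of the 14635 tested genes, HSD11B1 among them, had a log2 fold change at or below it. Summed over the libraries, HSD11B1 had 67 counts in the knockdown cells and 755 in the control cells, and the control cells exceeded the knockdown cells 9.64-fold after scaling, with a 95% exact interval of 7.50 to 12.6 that covers counting error only. In bulk libraries, fewer cells that carry a transcript cannot be told apart from less of that transcript per cell.

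**Figure D1:**
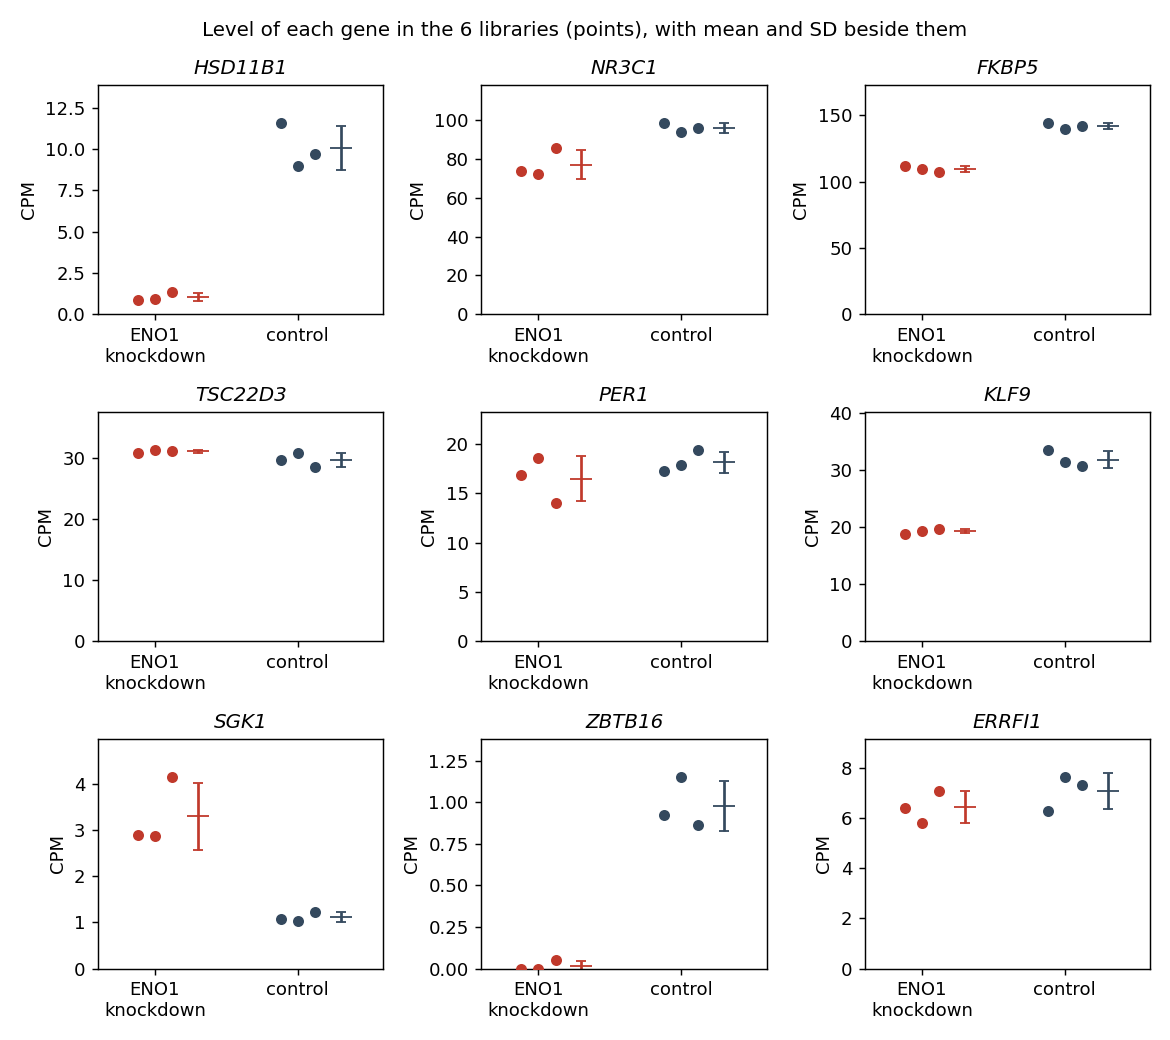
Level of each of the 9 genes in CPM, 1 panel per gene with its own linear axis from 0, knockdown libraries left of control libraries, points for libraries and the mean with its SD beside them. HSD11B1 sits at 0.883 to 1.33 CPM in the knockdown libraries and at 8.98 to 11.6 CPM in the control libraries, SGK1 is the gene whose knockdown libraries all lie above the control libraries, and TSC22D3, PER1 and ERRFI1 overlap between the groups.

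NR3C1, the receptor itself, was lower by a much smaller margin. The gene (ENSG00000113580) lies on the minus strand of chromosome 5, from 143277931 to 143435512. It had 1586, 1587 and 1736 counts in the knockdown libraries, against 2550, 2282 and 2331 counts in the control libraries. In CPM, the knockdown libraries were at 73.7, 72.0 and 85.4, against 98.3, 93.6 and 95.6 in the control libraries. The groups did not overlap, and knockdown replicate 3 lay closest to the control libraries. The mean was 77.0 ± 7.27 CPM in the knockdown cells and 95.8 ± 2.39 CPM in the control cells (SD, n = 3 each), with a log2 fold change of -0.32 and an approximate standard error of 0.05. The knockdown cells thus held 80.4% of the control level of the receptor transcript. The related mineralocorticoid receptor gene NR3C2, whose product also binds cortisol, was too low to be tested, with 9, 4 and 7 counts in the knockdown libraries and 9, 16 and 3 in the control libraries.

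Among the 7 target genes, FKBP5, KLF9 and ZBTB16 were lower in the knockdown cells, SGK1 was higher, and TSC22D3, PER1 and ERRFI1 overlapped between the groups. FKBP5 encodes an immunophilin that binds HSP90 and lowers the affinity of the receptor for hormone. The gene (ENSG00000096060) lies on the minus strand of chromosome 6, from 35573585 to 35728583. It was at 111.7, 109.6 and 107.3 CPM in the knockdown libraries, against 144.2, 139.8 and 142.3 CPM in the control libraries. Both groups were tight and did not overlap, and the knockdown cells held 77.1% of the control level. The log2 fold change of FKBP5 was -0.38, with a standard error of about 0.04.

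KLF9 encodes a zinc finger transcription factor that binds GC-rich promoter elements. The gene (ENSG00000119138) lies on the minus strand of chromosome 9, from 70384597 to 70414624. It was at 18.8, 19.3 and 19.6 CPM in the knockdown libraries, against 33.4, 31.3 and 30.7 CPM in the control libraries. The lowest control library stood well above the highest knockdown library. The log2 fold change was -0.72, with a standard error of about 0.07, which left 60.5% of the control level in the knockdown cells.

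ZBTB16 encodes PLZF, a transcriptional repressor first known as a fusion partner of the retinoic acid receptor in acute promyelocytic leukaemia. The gene (ENSG00000109906) lies on the plus strand of chromosome 11, from 114059593 to 114250676. It had 0, 0 and 1 counts in the knockdown libraries, against 24, 28 and 21 counts in the control libraries. It passed the filter on low counts through the control libraries, and the depth sets how far the size of its difference can be read. The sums were 1 count in the knockdown cells and 73 in the control cells, and the scaled ratio of control to knockdown was 62.4 with a 95% exact interval of 10.9 to 2500 for counting error only. The fitted log2 fold change of -5.54 depends on the prior count and is no bound.

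SGK1 encodes a serine and threonine kinase that acts on ion channels and on FOXO factors, and it is also induced by serum and by cell stress. The gene (ENSG00000118515) lies on the minus strand of chromosome 6, from 134169246 to 134318112. It had 62, 63 and 84 counts in the knockdown libraries, against 28, 25 and 30 counts in the control libraries. These were 2.88, 2.86 and 4.13 CPM in the knockdown libraries, against 1.08, 1.03 and 1.23 CPM in the control libraries. The groups did not overlap, and knockdown replicate 3 was the highest library. The knockdown mean was 2.96-fold the control mean, with a log2 fold change of 1.56 and an approximate standard error of 0.23.

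TSC22D3 encodes GILZ, a leucine zipper protein known for restraining inflammatory transcription factors, and it is among the most widely used readouts of receptor activity. The gene (ENSG00000157514) lies on the minus strand of chromosome X, from 107713221 to 107777342. It was at 30.8, 31.3 and 31.2 CPM in the knockdown libraries, against 29.8, 30.9 and 28.6 CPM in the control libraries. Control replicate 2 lay within the range of the knockdown libraries. The log2 fold change was 0.06, with a standard error of about 0.06.

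PER1 encodes a repressor of the circadian clock. The gene (ENSG00000179094) lies on the minus strand of chromosome 17, from 8140472 to 8156506. It was at 16.9, 18.5 and 14.0 CPM in the knockdown libraries, against 17.2, 17.8 and 19.3 CPM in the control libraries, with a log2 fold change of -0.13 and an approximate standard error of 0.09. Knockdown replicate 2 lay among the control libraries, and with 1 library left out the log2 fold change ran from -0.23 without knockdown replicate 2, where a call of lower was made, to -0.04 without knockdown replicate 3.

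ERRFI1 encodes MIG6, a feedback inhibitor of the epidermal growth factor receptor. The gene (ENSG00000116285) lies on the minus strand of chromosome 1, from 8004404 to 8026308. It was at 6.41, 5.81 and 7.08 CPM in the knockdown libraries, against 6.29, 7.63 and 7.34 CPM in the control libraries. The groups overlapped, and the log2 fold change was -0.14, with a standard error of about 0.13.

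Of the 9 members, 6 were called (66.7%), 5 as lower and 1 as higher, beside the 59.9% called among all tested genes. The groups did not overlap for 6 members, with the knockdown libraries above for 1 and below for 5, beside 64.3% of all tested genes, 31.8% above and 32.5% below. Since the members were chosen from this contrast, nothing is read from these shares. The median log2 fold change was -0.32 over the 9 members and -0.14 over the 7 target genes.

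Divided by the length of annotated exon sequence, the levels of the members could be set in order. In the knockdown cells FKBP5 was highest at 10.3 ± 0.209 CPM per kilobase, followed by NR3C1 at 8.40 ± 0.793, TSC22D3 at 6.53 ± 0.056 and KLF9 at 3.72 ± 0.074 CPM per kilobase (SD, n = 3 each). PER1, ERRFI1, HSD11B1 and SGK1 followed at 2.35 ± 0.325, 1.54 ± 0.152, 0.697 ± 0.158 and 0.329 ± 0.073 CPM per kilobase, and ZBTB16 was lowest. No neighbours in that order overlapped in the knockdown libraries. In the control cells FKBP5 and NR3C1 were again highest, at 13.4 ± 0.207 and 10.5 ± 0.261 CPM per kilobase. HSD11B1 came next at 6.66 ± 0.885 CPM per kilobase, and its libraries overlapped those of TSC22D3 at 6.24 ± 0.234 and KLF9 at 6.14 ± 0.275 CPM per kilobase, so these 3 genes had no order beyond their spread. PER1 at 2.59 ± 0.155 and ERRFI1 at 1.69 ± 0.169 CPM per kilobase followed, and ZBTB16 at 0.154 ± 0.024 and SGK1 at 0.111 ± 0.011 CPM per kilobase were lowest. HSD11B1 therefore stood beside TSC22D3 and KLF9 in the control cells and between ERRFI1 and SGK1 in the knockdown cells.

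**Figure D2:**
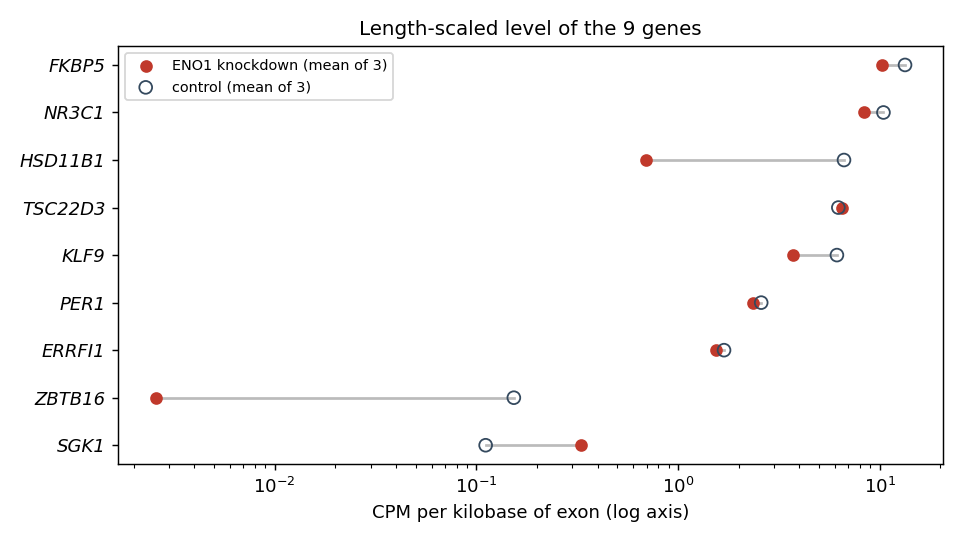
Mean level of each gene per kilobase of exon, in CPM per kilobase on a log axis, with filled points for the knockdown mean and open points for the control mean (n = 3 each) and genes ordered down the page by the control mean. HSD11B1 is at 0.697 CPM per kilobase in the knockdown cells and at 6.66 CPM per kilobase in the control cells, where it is level with TSC22D3 and KLF9.

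Promoter sequence is shown for HSD11B1, the member with the lowest ratio among those well counted, and for FKBP5, PER1 and SGK1, whose windows held a searched motif and whose levels in the knockdown cells were lower, overlapping and higher. Windows of 250 bases before to 50 bases after each annotated transcription start came from RefSeq (GRCh38.p14), and 8 of the 9 members were matched, with 20 windows between them. Capitals mark matched motifs, searched on both strands. These were GNACA and TGTNC with 3 bases of any kind between them for the full receptor element, AGAACA for a single arm of it, TTGCNNAA for the C/EBP family and CACGTG for the E-box of clock factors. A match of the first motif can overlap an AGAACA, so matches of these motifs are not independent.
HSD11B1, chr1:209685929-209686228, plus strand: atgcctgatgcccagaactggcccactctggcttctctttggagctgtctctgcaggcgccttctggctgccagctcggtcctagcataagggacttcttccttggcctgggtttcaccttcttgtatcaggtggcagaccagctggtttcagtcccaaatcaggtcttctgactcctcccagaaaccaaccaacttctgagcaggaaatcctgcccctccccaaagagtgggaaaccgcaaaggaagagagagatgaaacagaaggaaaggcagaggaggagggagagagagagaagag
FKBP5, chr6:35728534-35728833, minus strand: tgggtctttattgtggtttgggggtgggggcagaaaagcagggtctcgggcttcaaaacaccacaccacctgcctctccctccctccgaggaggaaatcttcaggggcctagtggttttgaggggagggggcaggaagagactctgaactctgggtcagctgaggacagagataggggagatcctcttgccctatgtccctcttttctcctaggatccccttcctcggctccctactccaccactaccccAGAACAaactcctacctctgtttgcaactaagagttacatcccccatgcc
PER1, chr17:8152355-8152654, minus strand: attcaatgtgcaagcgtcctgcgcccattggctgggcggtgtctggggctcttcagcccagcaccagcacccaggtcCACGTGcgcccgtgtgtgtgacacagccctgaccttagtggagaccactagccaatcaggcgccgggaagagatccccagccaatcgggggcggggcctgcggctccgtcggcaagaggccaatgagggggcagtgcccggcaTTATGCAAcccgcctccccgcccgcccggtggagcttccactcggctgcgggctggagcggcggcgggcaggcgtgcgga
SGK1, chr6:134177812-134178111, minus strand: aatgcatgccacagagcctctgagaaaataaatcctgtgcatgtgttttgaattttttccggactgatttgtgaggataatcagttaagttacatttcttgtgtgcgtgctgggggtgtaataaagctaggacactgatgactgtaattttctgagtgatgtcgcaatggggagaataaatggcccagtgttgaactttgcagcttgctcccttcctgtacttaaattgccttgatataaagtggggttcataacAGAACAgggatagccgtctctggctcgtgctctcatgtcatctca
The full receptor element was found in 0 of the 20 windows, and in 0.389% of all 34943 windows of the same length in the table. AGAACA was found in 2 windows, the FKBP5 and SGK1 windows shown, and in 14.8% of all windows. TTGCNNAA was found in 3 windows, of NR3C1, PER1 and SGK1, and in 10.5% of all windows, and CACGTG in 2 windows, of FKBP5 and PER1, and in 7.23% of all. The HSD11B1 window held none of these letters, and that says nothing of binding elsewhere.

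The genes whose profile over the 6 libraries was nearest to that of HSD11B1 were LYZ, MPO, LPO, ALDH1L2 and MYO7A. Nearness was the Euclidean distance between log2(CPM + 1) values centred on the mean of the control libraries, over 6 libraries, and it was 0.306, 0.403, 0.413, 0.427 and 0.457 for these genes. The added 1 CPM shrinks the difference of HSD11B1, which was near 1 CPM in the knockdown libraries. Fitted log2 fold changes of these genes were smaller, at -2.41, -2.61, -2.86, -2.35 and -2.42, against -3.26 for HSD11B1. LYZ encodes lysozyme, MPO and LPO encode peroxidases and ALDH1L2 a mitochondrial folate enzyme, while MYO7A encodes an unconventional myosin. LPO was at 4.14 ± 0.367 CPM in the knockdown libraries and 30.1 ± 2.71 CPM in the control libraries, and MYO7A at 10.3 ± 0.647 CPM in the knockdown libraries and 55.2 ± 1.10 CPM in the control libraries (SD, n = 3 each). Part of the exons of LYZ overlaps another gene on the opposite strand, so its count is uncertain without a known strand setting. LYZ and MPO belong to the myeloid markers given above, whose median log2 fold change was -0.86. The summed level of that list was 1891 to 1908 CPM in the knockdown libraries and 2402 to 2407 CPM in the control libraries. Its part in the difference in HSD11B1 was not tested.

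**Figure D3:**
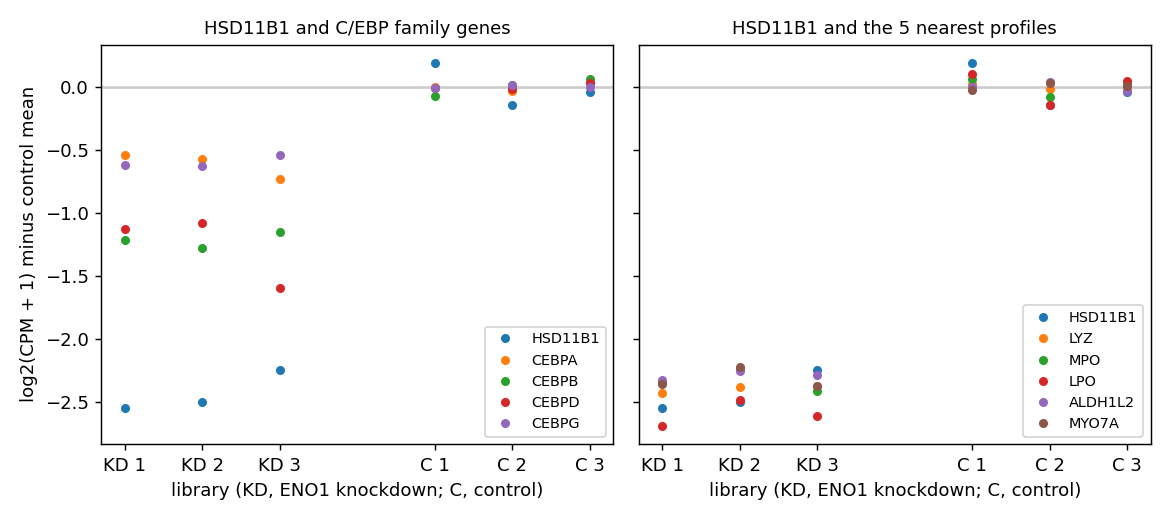
Difference from the control mean in log2(CPM + 1) in each of the 6 libraries, knockdown libraries (KD) left of control libraries (C), for HSD11B1 with 4 C/EBP family genes in the left panel and with the 5 nearest profiles in the right panel. All genes shown lie below 0 in the 3 knockdown libraries, and the distances of the 5 nearest genes from HSD11B1 run from 0.306 to 0.457. The C/EBP family genes CEBPE, which fell, and DDIT3, which had no call, are not shown.

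Several factors known to act on HSD11B1 transcription, chiefly of the C/EBP family of leucine zipper factors, also differed. Of 14 listed regulators 12 were tested, 7 fell and 3 rose, and the median log2 fold change was -0.34. Beside this and the later list counts, 29.4% of all tested genes were called higher and 30.5% lower. CEBPB was at 20.6 ± 0.924 CPM in the knockdown libraries and 49.1 ± 2.36 CPM in the control libraries, and CEBPA at 171 ± 11.8 CPM in the knockdown libraries and 262 ± 6.91 CPM in the control libraries (SD, n = 3 each). CEBPB fell by 1.26 (edgeR adjusted p = 4.92e-16) and CEBPA by 0.62 (edgeR adjusted p = 5.18e-12) on the log2 scale. Both CEBPA and CEBPB share exon sequence with a gene on the opposite strand and are uncertain in that respect. CEBPD, at 27.2 ± 5.26 CPM in the knockdown libraries and 66.1 ± 1.23 CPM in the control libraries, had a log2 fold change of -1.27 (edgeR adjusted p = 5.73e-05), and knockdown replicate 3 was its lowest library with 431 counts. CEBPG and NR1H2, the oxysterol receptor LXR beta, fell by 0.60 and 0.33 on the log2 scale (edgeR adjusted p = 1.20e-13 and 2.24e-08). Of the other C/EBP family genes listed, CEBPE fell by 0.70 (edgeR adjusted p = 0.0400). DDIT3 overlapped between the groups and had no call, at 0.04 on the log2 scale. The NF-kB subunit genes RELA and NFKB1 were among those that rose.

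Enzymes of steroid handling went both ways. Of 30 listed genes 23 had values and 16 were tested, with 8 lower, 5 higher and 3 without a call, and a median log2 fold change of -0.15. H6PD, which supplies NADPH to the HSD11B1 enzyme, was at 37.7 ± 2.82 CPM in the knockdown libraries and 49.0 ± 1.08 CPM in the control libraries (SD, n = 3 each), and fell by 0.38 on the log2 scale (edgeR adjusted p = 1.77e-06). HSD11B2, which encodes the opposing enzyme, was too low to be tested, with 4, 1 and 1 counts in the knockdown libraries and 4, 1 and 2 counts in the control libraries. STAR, which carries cholesterol into mitochondria for steroid synthesis, was at 23.7 ± 1.87 CPM in the knockdown libraries and 63.5 ± 2.06 CPM in the control libraries (SD, n = 3 each), and fell by 1.42 on the log2 scale (edgeR adjusted p = 1.34e-17). HSD17B4, a peroxisomal enzyme of fatty acid and steroid oxidation, fell by 0.42 (edgeR adjusted p = 5.31e-09). The aldo-keto reductase genes AKR1C2 (edgeR adjusted p = 4.01e-08) and AKR1C1 had log2 fold changes of -1.99 and -1.26. They share 38.9% and 28.6% of their 50-base stretches with other genes and are uncertain. AKR1C1, counted among the 8 lower, had 8, 23 and 18 counts in the knockdown libraries and 54, 44 and 40 in the control libraries. It passed the filter on low counts through the control libraries. SRD5A1, a steroid reductase, rose to 6.98 ± 1.46 CPM in the knockdown libraries, against 4.04 ± 0.291 CPM in the control libraries (SD, n = 3 each; edgeR adjusted p = 6.62e-05).

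The chaperones that hold the receptor fell or had no call, and none of the 18 tested rose. Of these 14 fell, and the median log2 fold change was -0.22. The immunophilin FKBP4, which competes with FKBP5 for HSP90 and favours nuclear entry of the receptor, was at 179 ± 2.35 CPM in the knockdown libraries and 293 ± 3.71 CPM in the control libraries (SD, n = 3 each), and fell by 0.71 on the log2 scale (edgeR adjusted p = 4.35e-17). Its exons overlap a gene on the opposite strand over 11.4% of their length. PTGES3, the cochaperone p23, was at 396 ± 7.53 CPM in the knockdown libraries and 640 ± 15.0 CPM in the control libraries (SD, n = 3 each), and fell by 0.69 (edgeR adjusted p = 1.39e-17). STIP1, the HSP70 to HSP90 adaptor HOP, fell by 0.41 and HSPA8, the constitutive HSP70, by 0.20 on the log2 scale (edgeR adjusted p = 1.06e-12 and 8.65e-08). The HSP90 genes HSP90AB1 and HSP90AA1 had log2 fold changes of -0.28 and -0.15 (edgeR adjusted p = 1.83e-10 and 1.95e-05) and share 16.6% and 11.3% of their 50-base stretches with other genes.

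Coregulators of the receptor went both ways. Of 26 listed 23 were tested, 10 rose and 9 fell, with a median of 0.03, and with plain library-size scaling 10 were called higher and 6 lower. NCOA3, a coactivator of the p160 family, was at 71.1 ± 2.72 CPM in the knockdown libraries and 28.7 ± 1.49 CPM in the control libraries (SD, n = 3 each), a rise of 1.31 on the log2 scale (edgeR adjusted p = 1.24e-17). Its relatives NCOA1 and NCOA2 differed in direction, with log2 fold changes of 0.43 and -0.30 (edgeR adjusted p = 1.52e-06 and 5.48e-06). The acetyltransferases CREBBP and EP300 rose by 0.37 and 0.26 on the log2 scale (edgeR adjusted p = 1.90e-09 and 1.41e-07). The arginine methyltransferase CARM1, partly overlapped by a gene on the other strand, was at 65.0 ± 1.44 CPM in the knockdown libraries and 128 ± 1.06 CPM in the control libraries (SD, n = 3 each), and fell by 0.98 (edgeR adjusted p = 9.14e-18). The deacetylase HDAC2 and the heterochromatin protein gene CBX3 fell by 0.43 and 0.68 (edgeR adjusted p = 2.53e-12 and 2.94e-12).

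Further genes known to be induced through the receptor in at least 1 human cell type mostly rose. Of 37 listed, 33 had values and 26 were tested, and 16 rose, 6 fell and 4 had no call, with a median log2 fold change of 0.50. Among the 16, SCNN1A had 11, 10 and 8 counts in the control libraries and RGS2 had 13, 17 and 6. Both passed the filter on low counts through the knockdown libraries and were singled out after their values were seen. ANXA1, the anti-inflammatory protein annexin A1, was at 174 ± 4.42 CPM in the knockdown libraries and 35.6 ± 1.15 CPM in the control libraries (SD, n = 3 each), and rose by 2.29 (edgeR adjusted p = 3.07e-25). TXNIP, an inhibitor of thioredoxin and of glucose uptake, was at 279 ± 10.5 CPM in the knockdown libraries and 107 ± 1.85 CPM in the control libraries (SD, n = 3 each), and rose by 1.39 (edgeR adjusted p = 3.03e-22). ZFP36, which destabilises cytokine transcripts, and the metallothionein MT2A rose by 0.88 and 1.10 on the log2 scale (edgeR adjusted p = 5.38e-13 and 1.46e-06). The chemokine receptor CXCR4 was at 22.0 ± 0.659 CPM in the knockdown libraries and 66.1 ± 0.820 CPM in the control libraries (SD, n = 3 each), and fell by 1.59 (edgeR adjusted p = 1.82e-19). DDIT4 fell by 1.33 (edgeR adjusted p = 3.13e-20), with 41.2% of its exon length overlapped by a gene on the opposite strand. The other genes that fell were CEBPD, given above, IRS2, GLUL and SLC19A2. Most of these genes also answer to signals other than glucocorticoids.

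Of 22 inflammatory genes known to be held down by the receptor, 20 had values and 11 were tested. In this list 8 rose, 1 fell and 2 had no call, with a median log2 fold change of 0.97. TNF and CCL2 rose by 0.89 and 3.06 on the log2 scale (edgeR adjusted p = 4.65e-15 and 2.12e-14). ICAM1 rose by 0.97 (edgeR adjusted p = 6.26e-16) and is uncertain, with 23.6% of its exon length overlapped on the opposite strand. The interferon-induced chemokine CXCL10 had 47, 48 and 58 counts in the knockdown libraries, against 5, 3 and 2 counts in the control libraries, and passed the filter on low counts through the knockdown libraries. Its summed counts were 153 in the knockdown cells and 10 in the control cells, a scaled ratio of 17.9 with a 95% exact interval of 9.47 to 38.1 for counting error only. CCL4, another of the 8, likewise had at most 6 counts in a control library, and CCL3 had 12, 14 and 9 counts in the control libraries. Both also passed the filter through the knockdown libraries and were singled out after their values were seen. The gene that fell was MMP9, a matrix metalloproteinase, and IL1B and CXCL8 were among those that rose. Many genes of this list are also driven by NF-kB and interferon.

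**Figure D4:**
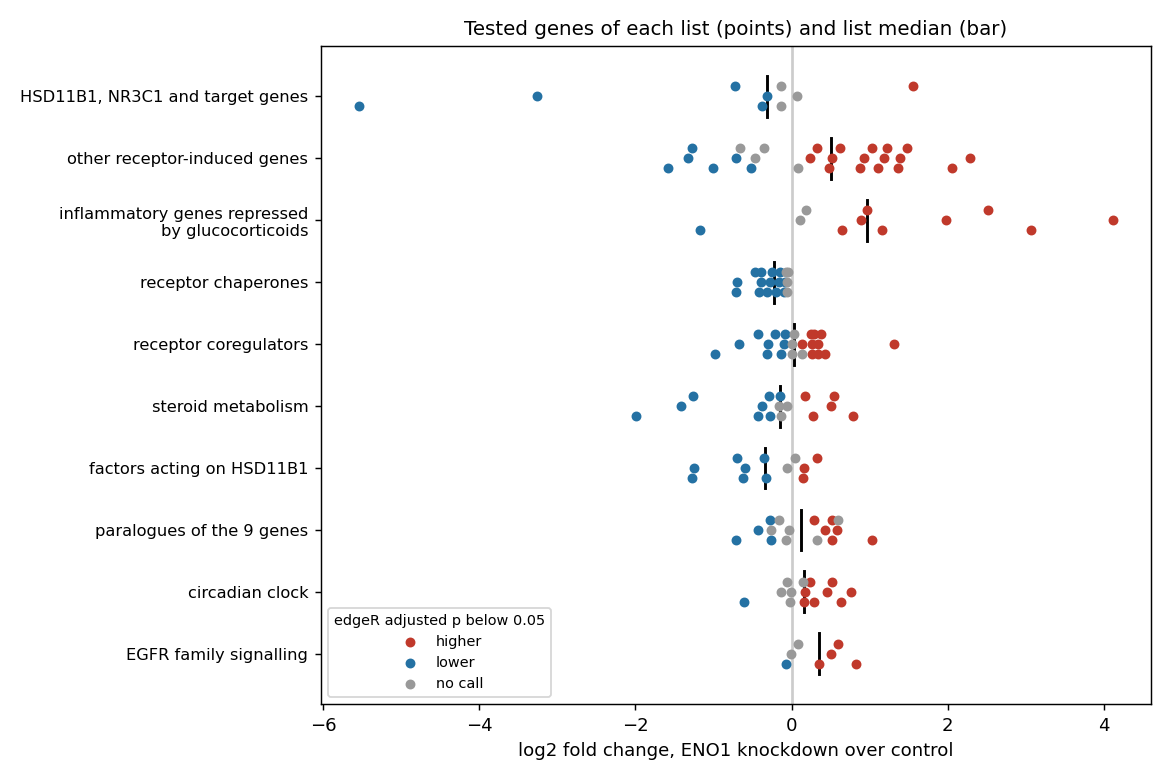
Log2 fold change of knockdown over control for each tested gene of the 9 described genes and of the lists, with points for genes, coloured by call at an edgeR adjusted p below 0.05, and a bar for the median of each list. The medians run from -0.34 for factors acting on HSD11B1 and -0.22 for the chaperones to 0.50 for other receptor-induced genes and 0.97 for receptor-repressed genes.

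Paralogues and partners of the members were read beside them. Of 20 listed paralogues 16 were tested, 6 rose, 4 fell and 6 had no call, with a median of 0.12. The called share was 62.5%, near the 59.9% among all tested genes, and nothing is read from it. TSC22D2, a relative of TSC22D3, was at 28.6 ± 1.35 CPM in the knockdown libraries and 14.0 ± 0.502 CPM in the control libraries (SD, n = 3 each), and rose by 1.03 (edgeR adjusted p = 2.11e-12), while TSC22D1 and TSC22D4 had no call. KLF13, a relative of KLF9, rose by 0.42, and SGK3, a relative of SGK1, rose by 0.59 on the log2 scale (edgeR adjusted p = 1.65e-11 and 1.12e-06). FKBP3 rose by 0.52 (edgeR adjusted p = 1.74e-09) and is uncertain because 28.9% of its exon length overlaps a gene on the opposite strand. Among 19 clock genes 14 were tested, 8 rose and 1 fell, with a median of 0.16. Their called share, 64.3%, was also near that of all tested genes. PER2, the paralogue of PER1, was at 40.3 ± 0.568 CPM in the knockdown libraries and 28.0 ± 1.86 CPM in the control libraries (SD, n = 3 each; edgeR adjusted p = 2.29e-08), and the cryptochrome CRY2 rose by 0.77 (edgeR adjusted p = 8.04e-11). BHLHE40, a repressor of clock genes, fell by 0.61 (edgeR adjusted p = 4.53e-11). Of 14 genes of the EGFR pathway, in which the product of ERRFI1 acts, 7 were tested, 4 rose and 1 fell, with a median of 0.35, and with plain library-size or upper-quartile scaling 5 were called higher and 0 lower. The call of the gene that fell, GRB2, at -0.07 on the log2 scale (edgeR adjusted p = 0.0293), was lost in several other settings. The exchange factor SOS1 rose by 0.59 and the ligand HBEGF by 0.35 (edgeR adjusted p = 2.26e-10 and 0.00354). EGFR itself had 0, 0 and 3 counts in the knockdown libraries and 3, 0 and 0 in the control libraries, and was not tested.

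Of 3 tested protein-coding genes within 250 kb of HSD11B1, 2 rose and 1 had no call. LAMB3, a laminin chain whose gene starts 33.7 kb from the start of HSD11B1 on its upstream side, was at 18.8 ± 2.09 CPM in the knockdown libraries and 10.1 ± 0.503 CPM in the control libraries (SD, n = 3 each), and rose by 0.89 on the log2 scale (edgeR adjusted p = 4.18e-09). TRAF3IP3, an immune signalling adaptor whose start lies 69.9 kb downstream, was at 57.4 ± 1.83 CPM in the knockdown libraries and 42.3 ± 1.00 CPM in the control libraries (SD, n = 3 each), and rose by 0.44 (edgeR adjusted p = 1.75e-08), with 29.5% of its exon length overlapped by C1orf74 on the other strand. UTP25, a ribosome assembly gene 141.8 kb downstream, had no call, at 39.0 ± 0.934 CPM in the knockdown libraries and 41.6 ± 1.79 CPM in the control libraries (SD, n = 3 each; edgeR adjusted p = 0.144). The antisense gene HSD11B1-AS1 had 1, 2 and 4 counts in the knockdown libraries and 0, 7 and 5 counts in the control libraries, too few to be tested. ERRFI1 lies 834.7 kb from ENO1, the targeted gene, on the same chromosome. Between them RERE, a nuclear receptor coregulator, was at 60.3 ± 3.12 CPM in the knockdown libraries and 41.7 ± 0.645 CPM in the control libraries (SD, n = 3 each), and rose by 0.53 on the log2 scale (edgeR adjusted p = 7.77e-10).

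**Figure D5:**
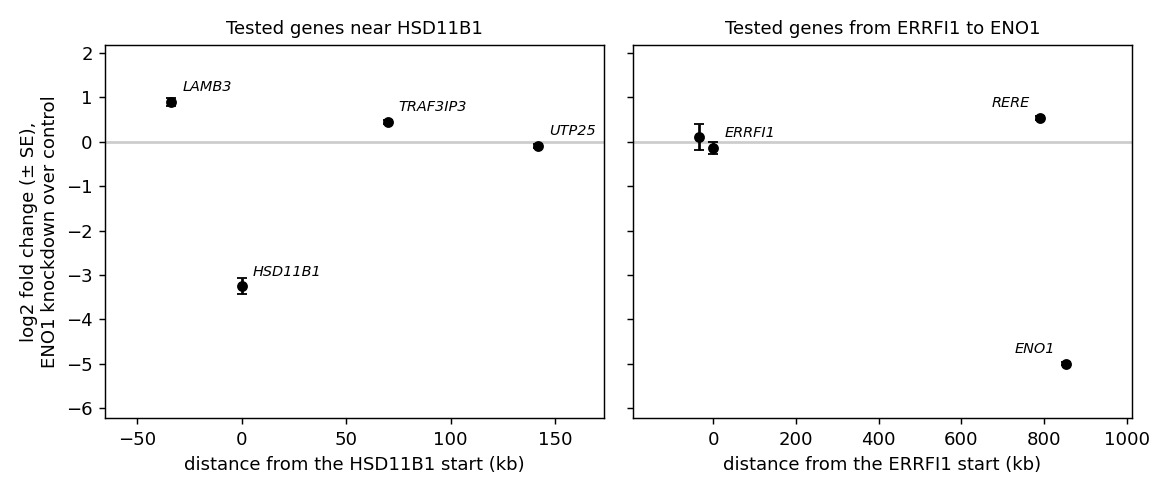
Log2 fold change of knockdown over control with its approximate standard error for tested genes, against the distance of their start in kilobases from the start of HSD11B1 (left panel) or of ERRFI1 (right panel). HSD11B1 lies at -3.26, LAMB3 and TRAF3IP3 at 0.89 and 0.44 and UTP25 at -0.09, while ERRFI1 lies at -0.14, RERE at 0.53 and ENO1 at -5.00, and the point without a name is an antisense gene beside ERRFI1 with no call.

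Cell purity was checked with markers of other cell types. Of 17 such markers 12 had values and 6 were tested, of which 4 rose and 1 fell, and their summed level was 117.5 to 122.1 CPM in the knockdown libraries and 115.0 to 118.1 CPM in the control libraries. Among the markers too low to be tested, the T cell gene CD3E had 3, 0 and 0 counts in the knockdown libraries and 0 in each control library. The B cell gene MS4A1 had 0, 0 and 5 counts in the knockdown libraries and 0 in each control library, and the epithelial gene EPCAM had 0, 2 and 0 counts in the knockdown libraries and 0 in each control library. Another B cell gene, PAX5, passed the filter on low counts and rose by 2.94 on the log2 scale. That filter asks for a minimum level in 3 libraries only, so passing it does not mean that both groups were well counted. The keratin KRT8, which shares sequence with other genes, was at 23.4 ± 0.168 CPM in the knockdown libraries and 8.39 ± 0.264 CPM in the control libraries (SD, n = 3 each). KRT18, which also shares sequence, rose by 1.13 on the log2 scale (edgeR adjusted p = 4.75e-12). The gene that fell was PECAM1, by 0.50 (edgeR adjusted p = 5.18e-11). It was at 66.4 ± 1.71 CPM in the knockdown libraries and 93.9 ± 0.726 CPM in the control libraries (SD, n = 3 each). Most of the summed level was therefore PECAM1, whose fall offset the rises of KRT8 and KRT18. The similar sums in the groups do not show that the single markers, or the purity of the cells, were unchanged. The part of these markers, and of the mitochondrial share given above, in the differences of the members was not tested.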

How the data were processed

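RNA was sequenced from 6 MV4-11 libraries, 3 with ENO1 knockdown and 3 controls, grouped by their titles. Per the labels' protocols, Trizol was used for extraction and a TruSeq RNA kit for the libraries. HISAT2 2.0.5 and hg38 are named in the submitters' processing notes. Which read counter, annotation and strand setting were used is not stated in those notes or labels. The authors deposited 1 table of whole-number counts per Ensembl gene, not normalized, and a symbol was found for 23211 of 23227 genes.

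The test was that of edgeR 4.0.16, run in R 4.3.3 (TMM factors, filterByExpr defaults, robust glmQLFit and glmQLFTest, two-sided, Benjamini-Hochberg adjustment over 14635 genes, threshold 0.05). Standard errors are approximate, from the log2 fold change over the root of the F statistic. Intervals on counts are exact at 95% and cover counting error only. Exon length, overlap and sequence shared between genes came from GENCODE 29, and genes with more than 10% shared or overlapped are given as uncertain. All 9 members were below that limit. Alternatives, 15 in all, were scaling by RLE, by upper quartiles or by library size alone, no filter, DESeq2 1.42.0, limma-voom (limma 3.58.1), a replicate block, each library left out, the libraries that stood apart left out, and a threshold of 0.01.

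The members and lists were chosen with earlier results of these data known. The text names all members, ENO1, up to 4 genes per list (smallest adjusted p), some fixed partners, neighbouring genes and the 5 nearest profiles, and leaves out some of these. HSP90AA1, HSPA8, NCOA1, NCOA2, CREBBP, EP300, SRD5A1, AKR1C1, ZFP36, MT2A, SGK3 and genes named without a value were named for their role after their values were seen. CD33, ELANE, FCGR1A, AZU1, CD14, CD3E, MS4A1, EPCAM, EGFR, CEBPE and DDIT3 were also named outside the rule of smallest adjusted p. Their overlap and shared sequence were not assessed. Some genes stand in several lists.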

Additional observations from a re-analysis of the deposited data

How the results depend on the processing

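Across the 15 alternatives no member reversed. HSD11B1 ranged from -3.53 to -3.15 on the log2 scale, from -3.45 to -3.15 with 1 library left out. Since the members were chosen from this contrast, their calls across the alternatives are a description. These calls were as in the report, except that PER1, which ranged from -0.23 to -0.04, was called lower without knockdown replicate 2, so that 5 to 6 members were called lower with 1 library left out. Fitted log2 fold changes of ZBTB16 ranged from -7.54 to -4.87. Another scaling moved the median over all genes by at most 0.0532, and the 4309 genes called higher and 4458 lower became 4900 and 3843 with plain library-size scaling. In the EGFR list the 1 gene called lower became 0 with upper-quartile scaling, plain library-size scaling and the threshold of 0.01, and 0 to 1 with 1 library left out. The 4 genes of that list called higher became 2 at the threshold of 0.01 and 2 to 4 with 1 library left out, with 2 in the fit without knockdown replicate 2. The 8 clock genes called higher became 5 at the threshold of 0.01 and 4 without the libraries that stood apart, and ran from 6 to 7 with 1 library left out. GRB2 and, among the EGFR genes counted but not described, ERBB2 (0.51 on the log2 scale) lost their calls in at least 1 alternative. The depth limits ZBTB16, SGK1 and HSD11B1 most, since their lower group held 1 to 83 counts in all.

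Libraries with the same replicate number did not deviate together (r of 0.00289, 0.00917 and -0.0225 for numbers 1, 2 and 3). These correlations over all tested genes include counting scatter, so they cannot exclude a shared origin by number. With the replicate block, 4165 genes were called higher and 4325 lower, against 4309 and 4458 without it, HSD11B1 was at -3.25, and the EGFR list had 0 genes called lower.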
